A study of Homo sapiens with 18 samples.

Results

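SKOV-3 cells that express the luteinizing hormone receptor (LHR) and had been kept with luteinizing hormone (LH) at 50 ng/ml for 20 h, written LH20, were compared with SKOV-3 cells that do not express the receptor, written LHR-. SKOV-3 is an established human ovarian carcinoma line. The comparison used 6 of the 18 Affymetrix U133 Plus 2.0 arrays of the study, 3 per group, taken by their labels alone and over all 54675 probe sets. The other arrays are of receptor-bearing cells, written LHR+, that had no LH or had it for 1, 4 or 8 h at the same dose. The LHR+ cells were made by transfection with LHR, and the sources call the LHR- cells both the untransfected parent and mock-transfected. Whether the LHR+ cells are 1 clone or a pool is not given in the sources used here. The comparison therefore holds the receptor, transfection and selection, the hormone and the time in culture at once, and from these 6 arrays they cannot be told apart.

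LHR is a G protein-coupled receptor of the gonads. On binding LH it activates Gs and adenylyl cyclase, and the cAMP that forms activates protein kinase A and the CREB transcription factors, while phosphodiesterases break cAMP down again. In the ovary the LH surge sets off ovulation and luteinization, during which granulosa cells leave the cell cycle. Some cancers of the ovary carry the receptor.

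The receptor itself did not check the labels. LHCGR, the gene of LHR, read 0.978, 0.925 and 0.383 intensity units in the LHR- arrays and 0.236, 0.467 and 0.196 in the LH20 arrays. These levels are far below the array medians, and the groups overlapped. The log2 fold change was -0.43 (SE 0.36, limma adjusted p = 0.481), and the means of all 6 groups lay between 0.299 and 2.17. The probe set thus gave no level for the receptor in any group, LHR+ cells included, and whether it lies within the transfected construct is not given in the sources used here.

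Cell type markers were read from lists of general knowledge. The epithelial keratins KRT7, KRT8, KRT18 and KRT19 were bright in every array and none of them was called. The summed level of 10 epithelial markers ran from 25411.5 to 28857.7 in the LHR- arrays and from 35173.4 to 36768.9 in the LH20 arrays. ERBB2, MUC1 and CDH1 were called higher and CLDN4 lower among them. The summed level of 10 fibroblast markers ran from 30125.4 to 31039.2 in LHR- and from 19901.8 to 21744.4 in LH20. Of these markers, POSTN, LUM, COL3A1 and FAP were called lower and PDGFRA higher, with FAP at -3.14 and, without LH20 replicate 1, at -2.38 and not called. In the same list COL1A1 differed by -0.10 on the log2 scale (SE 0.09, adjusted p = 0.486). The labels name only SKOV-3 cells, so these lists were read as marker levels in this line and not as shares of cell types. The part of such a shift in the results below was not tested. In bulk RNA, fewer cells of the line that express a marker and less RNA per cell cannot be told apart. The summed level of 10 endothelial markers ran from 186 to 202 in LHR- and from 134 to 164 in LH20, and that of 9 granulosa and luteal markers from 97.7 to 125 and from 100.3 to 112, and no member of either list was called. The summed level of 8 leukocyte markers ran from 190.4 to 253 in LHR- and from 267 to 406 in LH20, with PTPRC at 28.5 or less. Only the granulosa and luteal sums overlapped between the groups among the 5 marker lists. CSF1R was called higher among them, a call that was lost without any one of the arrays LHR- replicate 3, LH20 replicate 2 or LH20 replicate 3 (log2 fold change 1.06 to 1.84).

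A gene was called when p was under 0.05, the adjusted p under 0.1, the fold change at least 2 and the lowest array of the higher group above the highest of the lower group. Each gene was represented by its brightest probe set, and fold changes are ratios of geometric means of intensity + 1. Of 19775 genes, 1035 were called higher in LH20 (5.23%) and 937 lower (4.74%), together 9.97%. These shares are the background for the counts of each list below. At an adjusted p under 0.1 alone, 3236 genes were higher and 3319 lower, together 33.15%. Of all probe sets 4862 were called (8.89%). The LHR+ arrays without LH split the difference into a receptor step, LHR+ minus LHR-, and a hormone step, LH20 minus LHR+. The steps add up to it on the log2 scale, and their names are short forms. The receptor step also holds transfection and selection. The hormone step may also hold time in culture, since no LHR+ group without LH is labelled as kept for 20 h. Within a step these cannot be told apart. The receptor step had 831 called genes (4.20%) and the hormone step 1464 (7.40%). The steps share the LHR+ arrays and each shares a group with the whole difference, so they are given side by side and not as support of one another. At a fold of 8 or more, 81 genes were higher and 86 lower, and at a fold of 32 or more, 11 and 6. The median log2 fold change over all genes was -0.0006. With the genes sorted by brightness into 4 bins of near equal size, the share called was 4.98% in the dimmest bin, 16.3% and 14.0% in the next bins and 4.59% in the brightest.

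**Figure D1:**
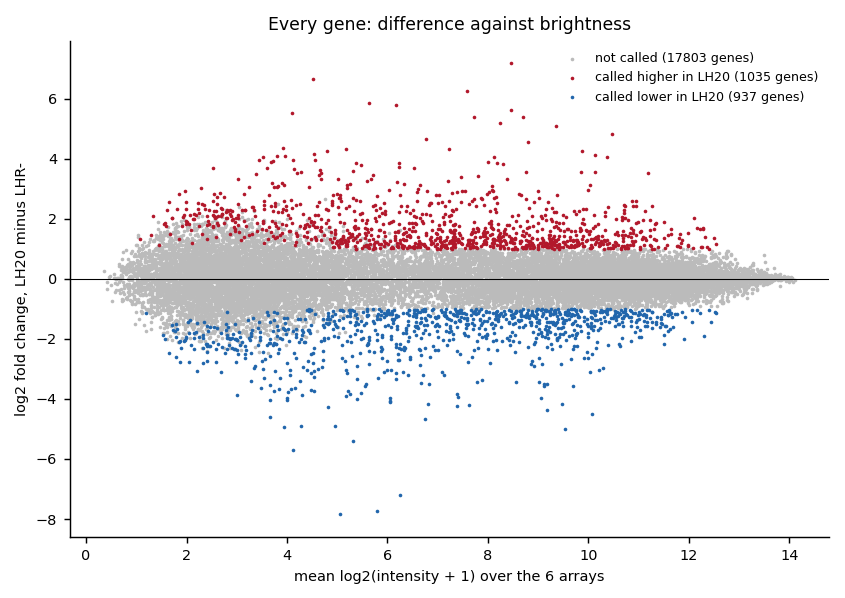
Log2 fold change of LH20 minus LHR- (y axis) against mean log2(intensity + 1) over the 6 arrays (x axis) for all 19775 genes, with 1035 genes called higher in red and 937 called lower in blue. Rises and falls are about balanced, and the widest differences lie below the brightest genes.

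Brightness was the mean log2 level over the LHR- and LH20 arrays together, so it was not independent of the difference. A gene that was dim in LHR- could pass by its level in LH20, as ZNF114 did. Likewise a gene that was dim in LH20 could pass by its level in LHR-, as CALB1 did below. The largest rises among genes above the median brightness began with ZNF114, which encodes a zinc finger protein. ZNF114 read 25.6, 30.3 and 28.9 in the LHR- arrays and 3811, 4523 and 4389 in the LH20 arrays. The 2 groups were far apart, and the fold change was 145 (log2 7.18, SE 0.12, adjusted p = 4.12e-13), and the log2 fold change was 6.59 when 16 in place of 1 was added to every value. The receptor step was 4.96 and the hormone step 2.22 on the log2 scale, both called.

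KCNJ16, an inwardly rectifying potassium channel subunit, read 11.1, 24.2 and 33.8 in LHR- and 1569, 1678 and 1759 in LH20. Its fold change was 75.9 (log2 6.25, SE 0.35), or 44.5 with 16 added. The other probe set of KCNJ16 had means of 8.34 in LHR- and 30.3 in LH20 and was not called. With both averaged the log2 fold change was 3.98. Most of the rise of 6.25 lay in the hormone step, at 5.05 on the log2 scale against 1.19 for the receptor step. RBP7, a cellular retinol-binding protein, had the opposite make-up. It read 53.8, 47.3 and 45.9 in LHR- and 2238, 2574 and 2628 in LH20, a log2 fold change of 5.63 (SE 0.12). Its receptor step was 5.72, and its hormone step of -0.09 was not called.

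SANBR rose by 5.38 on the log2 scale (SE 0.22), from 93.4, 61.0 and 45.1 to 3065, 2690.4 and 2384, again with almost all of it in the receptor step (5.14). A second probe set of SANBR had mean intensities of 881.5 in LHR- and 1075 in LH20 and was not called. VAV3, a signaling adaptor with exchange factor activity, rose from 46.1, 24.5 and 28.2 to 1356, 1462 and 1279.9. Its steps were nearly equal, at 2.82 and 2.56, and together gave a log2 fold change of 5.38 (SE 0.23).

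Several other large rises had most of their size in the hormone step. CBLN2, a secreted cerebellin, rose from a mean of 51.1 to 1827. IGFN1, a protein of immunoglobulin and fibronectin domains, rose from 115 to 3822. The long non-coding RNA LINC02274 rose from 270.0 to 7583. SORBS2, an adaptor of the actin cytoskeleton, rose from 67.3 to 1145 and C11orf96 from 65.1 to 987. ASS1, which makes argininosuccinate in arginine synthesis, rose from 216 to 4118, and UCP2, a mitochondrial carrier, from 78.2 to 1128. For these 2 genes the receptor step was the larger, at 3.08 and 2.96 on the log2 scale.

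SMOC1, a secreted matricellular protein that binds calcium, moved in opposite directions in its 2 steps. It read 277, 230.3 and 300.2 in LHR- and 4339.8, 4729 and 4878 in LH20, a rise of 4.11 (log2, SE 0.12). Its receptor step was a fall of 1.40 and its hormone step a rise of 5.51, both called.

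**Figure D2:**
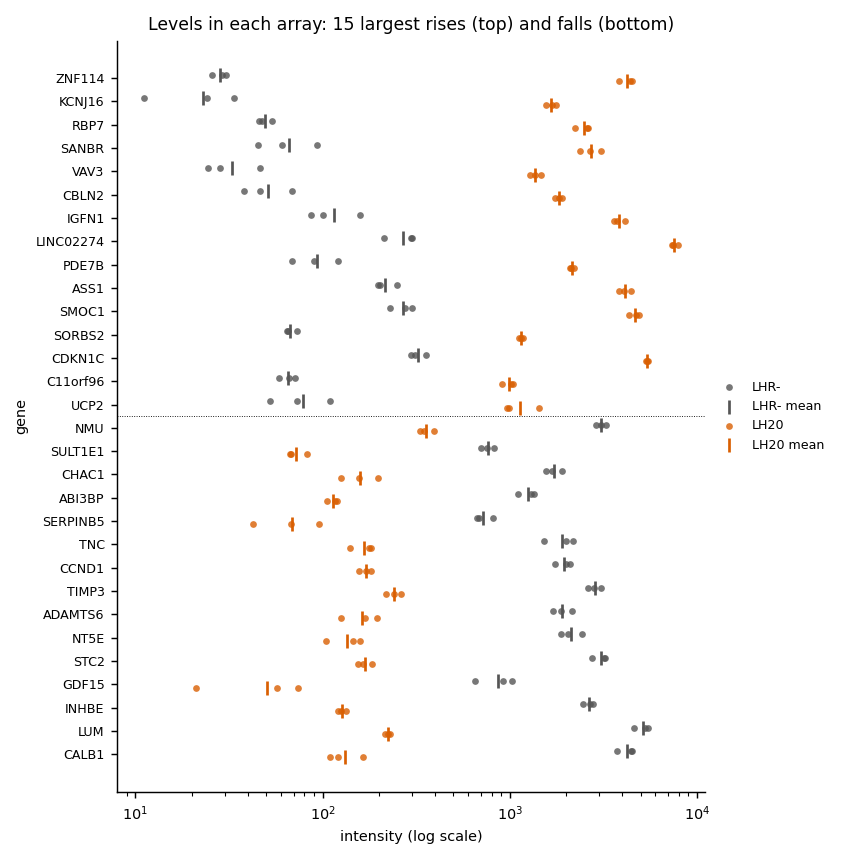
Intensity in each LHR- (grey) and LH20 (orange) array on a log scale for the 15 largest rises (top) and the 15 largest falls (bottom) among called genes above the median brightness, with vertical ticks at group means. The 2 groups of 3 arrays lie apart for all 30 genes, which the rule requires.

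Among genes above the median brightness the largest fall was that of CALB1, the calcium-binding protein calbindin. CALB1 read 4520.2, 4433 and 3725 in the LHR- arrays and 121, 109 and 164 in the LH20 arrays. The level was 32.3-fold lower in LH20 (log2 -5.01, SE 0.18, adjusted p = 9.0e-10). Its receptor step was -5.51, and its hormone step of 0.49 was not called.

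LUM, the collagen-binding proteoglycan lumican, read 5495, 5267 and 4588 in LHR- and 225, 216 and 229 in LH20. The net log2 fold change was -4.51 (SE 0.26), made of a receptor step of -7.88 and a hormone step of 3.37, both called. LUM in LH20 was thus between its mean in LHR+ cells, 21.0, and that in LHR- cells, 5117. SULT1E1, the sulfotransferase that inactivates estrogens, had the same make-up, with means of 761 in LHR-, 34.5 in LHR+ and 72.4 in LH20. TIMP3, an inhibitor of metalloproteinases held in the matrix, fell from 2816, 2626 and 3072 to 261, 242 and 218 (log2 -3.56, SE 0.13), and its receptor step was -4.25.

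INHBE, the activin beta E subunit, fell in both steps, by 2.06 and 2.32 on the log2 scale, from a mean of 2649 to 126. GDF15, a stress-induced cytokine of the TGF-beta family, fell from 867 to 50.6 and NMU, the peptide neuromedin U, from 3062 to 358. NT5E, the surface enzyme CD73 that makes adenosine, fell from a mean of 2118 to 136, with a hormone step of -3.00. SERPINB5, the serpin maspin, fell from 724 to 68.9, and ABI3BP, a matrix protein, from 1249 to 114. For SERPINB5 and ABI3BP the hormone step was not called.

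**Figure D3:**
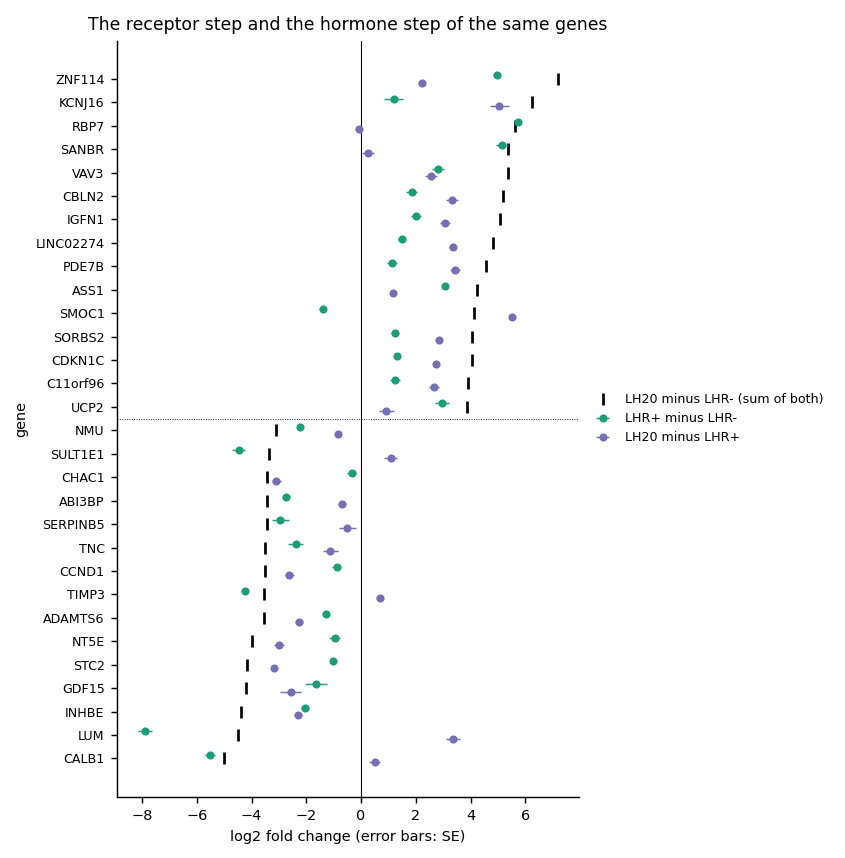
The receptor step (LHR+ minus LHR-, green) and the hormone step (LH20 minus LHR+, purple) with standard errors, and their sum (black ticks), as log2 fold changes for the same 30 genes. RBP7, SANBR, CALB1 and TIMP3 have a called receptor step and no called hormone step, CHAC1 the reverse, most of KCNJ16 lies in the hormone step, and SMOC1, LUM and SULT1E1 have steps of opposite sign.

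Beyond these, some dimmer genes were called in the same direction in both steps. The antisense RNA LSAMP-AS1 read 944, 794 and 1044 in LHR- and 4.63, 8.96 and 3.51 in LH20. Its log2 fold change was -7.19 (SE 0.53), or -5.44 with 16 added. MYCT1, a target of MYC, fell from a mean of 268 to 7.54, and BTC, the EGF-like ligand betacellulin, from 169.7 to 6.95. The log2 fold change of BTC was -4.91, and -3.92 without LH20 replicate 3, and that of MYCT1 was -5.40, and -4.43 without LH20 replicate 1. The other probe set of MYCT1 had means of 25.05 in LHR- and 14.34 in LH20 and was not called. With both averaged MYCT1 was at -3.08. The values of this paragraph describe genes chosen for the pattern.

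Some genes had large opposite steps that left little net difference. OR7E19P, an olfactory receptor pseudogene, read 194, 184 and 264 in LHR- and 289, 219.5 and 247 in LH20, while its LHR+ mean was 3105. Its net log2 fold change was 0.24, with a 95% interval from -0.06 to 0.54. NOX4, an NADPH oxidase, had means of 67.0 in LHR-, 4.31 in LHR+ and 41.4 in LH20, and its net interval ran from -2.54 to 1.21. SLCO2A1, a prostaglandin transporter, had means of 2.93, 65.8 and 5.03 and a net interval from -1.04 to 1.36. These intervals do not show that LH20 and LHR- cells had the same level.

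Of the lists read, that of G2/M and mitosis genes, which build the spindle and part the chromosomes, had the highest share of called members. Of 56 measured members, 43 were called lower and none higher (76.8%, against 4.74% of all genes lower). All 56 had a lower mean in LH20 with an adjusted p under 0.1, against 3319 of all 19775 genes. Above the median brightness were 55 of the 56, against 9887 of all 19775 genes. Lists and all genes are thus not compared at like brightness, here and below. The median log2 fold change was -1.47 against -0.0006 over all genes. The range ran from -2.92 to -0.24. The 13 members not called fell short of a fold of 2, with PLK4 just outside at -0.997 and CENPI just inside at -1.07. CENPI was at -0.94 and not called without LHR- replicate 2.

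BUB1, a kinase of the spindle checkpoint, had the largest fall. It read 1306, 1398 and 1291 in LHR- and 172, 189.6 and 165 in LH20, 7.56-fold lower (log2 -2.92, SE 0.14, adjusted p = 8.68e-09). MKI67, which encodes the proliferation antigen Ki-67, fell from 2449, 2576 and 2597 to 489, 455 and 412 (log2 -2.49, SE 0.13). CDCA3, which takes part in the entry into mitosis, fell from 1521, 1535 and 1474 to 388, 373 and 228 (log2 -2.23, SE 0.18). CDCA8, the chromosomal passenger protein borealin, fell from 2687, 2987 and 3017 to 641, 644 and 588 (log2 -2.21, SE 0.11). The arrays of the 2 groups were wide apart for each of them. Most of each fall was in the hormone step, at -1.65, -2.19, -2.04 and -1.83 for BUB1, MKI67, CDCA3 and CDCA8. Over the list, 1 member was called lower in the receptor step and 28 in the hormone step, with median steps of -0.39 and -1.04.

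**Figure D4:**
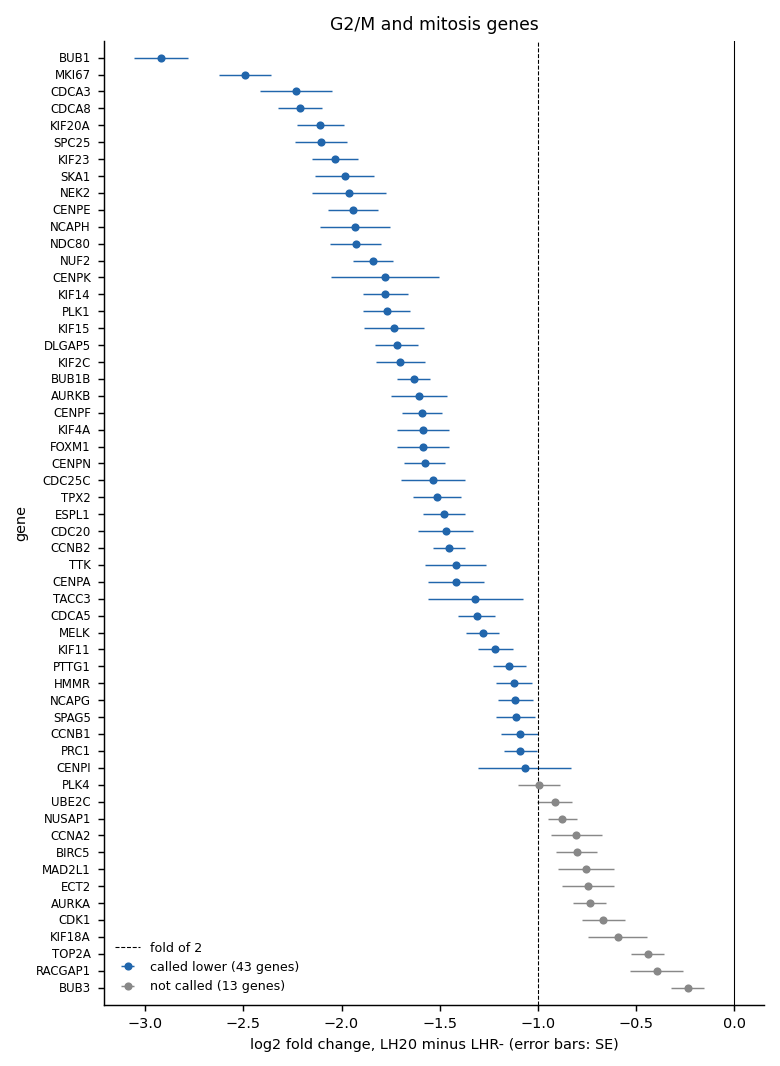
Log2 fold change of LH20 minus LHR- with its standard error for the 56 measured G2/M and mitosis genes, sorted by size. The 43 called genes (blue) lie beyond a fold of 2 (dashed line), the 13 others (grey) lie short of it, and all points are below 0.

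Many promoters of mitosis genes carry a short element, the cell cycle homology region, through which they are repressed outside G2 and mitosis. Its letters TTTGAA were searched on both strands in RefSeq promoters of GRCh38.p14, which run from 250 bases before to 50 after the gene start, and the motif was chosen after the fall of these genes had been seen. It was present in 25 of 40 promoters of mitosis genes called lower (62.5%), in 11.9% of the promoters of all tested genes and in 15.4% of all promoters. Among all genes called lower the share was 18.7% and among those called higher 10.3%. As many mitosis genes carry the element, its share describes the list and not the fall. Promoters of mitosis genes that were not called were not counted apart. The windows below, 40 bases on each side of the first match, belong to the called mitosis genes named above that hold the motif, shown with it in capitals to let its place be read.
CDCA3 (chr12:6851244-6851329, minus strand): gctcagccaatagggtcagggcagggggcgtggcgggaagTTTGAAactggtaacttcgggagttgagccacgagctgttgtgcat
CDCA8 (chr1:37692453-37692538, plus strand): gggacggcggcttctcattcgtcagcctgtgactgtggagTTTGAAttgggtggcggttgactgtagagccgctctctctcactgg
MKI67 (chr10:128126425-128126510, minus strand): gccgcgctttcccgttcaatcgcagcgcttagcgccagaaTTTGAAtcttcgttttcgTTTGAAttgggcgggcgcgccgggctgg
In MKI67 the motif stands 2 times within the window. A match is a run of letters and not a shown binding site.

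Genes of DNA replication and the G1/S transition, which act before mitosis, were read as a list of their own. Of 53 measured, 5 were called lower and none higher (9.43%, against 4.74% of all genes lower and 9.97% called). A lower mean in LH20 was seen for 45 and a higher one for 8. With an adjusted p under 0.1, 24 were lower and 5 higher, against 3319 and 3236 of all 19775 genes. Above the median brightness were 44 of the 53, against 9887 of all 19775 genes. The called genes were CLSPN, RRM2, ORC6, EXO1 and CDC45, and the median of the list was -0.32. Without LH20 replicate 1, CDC45 was at -0.95 and not called. RRM2, a subunit of ribonucleotide reductase, read 3777, 3459.5 and 3304 in LHR- and 1212, 1045 and 1170.0 in LH20 (log2 -1.62, SE 0.13). ORC6, of the origin recognition complex, fell by 1.34.

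Of 19 D cyclins, CDK inhibitors and related genes, 1 was called higher and 3 lower (21.1%, against 9.97% of all genes called). CDKN1C, the CDK inhibitor p57, read 312, 295 and 358 in LHR- and 5326, 5463 and 5378 in LH20. The rise was 16.8-fold (log2 4.07, SE 0.10, adjusted p = 1.61e-11), of which the receptor step held 1.31 and the hormone step 2.76. Other probe sets of CDKN1C rose by 2.45, 2.70 and 2.64 on the log2 scale, and a dim one was not called. With all of them averaged CDKN1C was at 2.68. CCND1, the cyclin D1 of G1 progression, went the other way. It fell from 2008, 1748 and 2100.4 to 171, 156 and 182, 11.4-fold (log2 -3.52, SE 0.15), with a called hormone step of -2.62 and a receptor step of -0.90 that was not called. The other probe set of CCND1 was at -1.48, also called, and the average of both was -2.50. The stress-induced growth arrest genes GADD45A and GADD45B fell by 1.99 and 1.11 on the log2 scale.

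The next lists concern protein synthesis and its precursors. ATF4 is the transcription factor of the amino acid response. Of 33 of its targets, amino acid synthesis genes and tRNA synthetases, 6 were called lower and 1 higher (21.2% called). With an adjusted p under 0.1, 22 were lower, against 3319 of all 19775 genes. All 33 were above the median brightness, against 9887 of all 19775 genes. STC2, a secreted glycoprotein hormone, read 2757, 3219 and 3203 in LHR- and 164, 184 and 154 in LH20 (log2 -4.18, SE 0.10). CHAC1, which breaks down glutathione, fell from 1569.6, 1673 and 1896 to 197, 125 and 156 (log2 -3.44, SE 0.16), and its LHR+ mean was still 1349. SESN2, an inhibitor of mTORC1 signaling, fell by 2.68 and TRIB3, a pseudokinase induced by stress, by 1.57. VLDLR, a lipoprotein receptor, was the 1 member called higher, at 1.11.

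Ribosome biogenesis factors make and assemble the ribosomal subunits. Of 35 measured, 4 were called lower and none higher (11.4%, against 4.74% of all genes lower and 9.97% called). A lower mean in LH20 was seen for 31 and a higher one for 4, and the median was -0.60. With an adjusted p under 0.1, 25 were lower, against 3319 of all 19775 genes. Above the median brightness were 34 of the 35, against 9887 of all 19775 genes. The log2 fold changes of the 4 called genes were -1.43 for RRS1, -1.40 for NIP7, -1.20 for RRP12 and -1.05 for RRP9. The calls of RRP12 and RRP9 were lost when 1 array was left out (LHR- replicate 2 for RRP12 at -0.99, and LHR- replicate 1 or LH20 replicate 1 for RRP9 at -0.99 and -0.95). None of 39 cytosolic ribosomal protein genes was called, with a median of 0.03 and with none at an adjusted p under 0.1.

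Nucleotide synthesis held 4 called falls and 1 rise among 27 genes (18.5%, against 9.97% of all genes called). The falls were GART, an enzyme of purine synthesis, and CTPS1, UPP1 and DTYMK, enzymes of pyrimidines. CTPS1 fell from 1967, 1839 and 1949 to 719.9, 622 and 584 (log2 -1.58, SE 0.10), all of it in the hormone step. NME4, a mitochondrial nucleoside diphosphate kinase, rose by 2.50, with 2.38 in the receptor step. Among 26 chaperones of the endoplasmic reticulum 3 were called lower (11.5%, against 4.74% of all genes lower and 9.97% called). They were HYOU1 at -1.84, DNAJB11 and SDF2L1. The call of SDF2L1 was lost without LHR- replicate 2 (-0.81) or LH20 replicate 3 (-0.74). Of 9 metallothioneins, MT1F and MT1H were called lower at -1.46 and -1.44, and as near copies of one another their probe sets may share signal.

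Genes that set the cAMP level were read next, since the receptor acts through cAMP. Of 20 cyclic nucleotide phosphodiesterases, 5 were called higher and 1 lower (30.0% called). PDE4B, which degrades cAMP, read 1.25, 1.02 and 1.61 in LHR- and 244, 211 and 235 in LH20. As LHR- was near the bottom of the scale, its log2 fold change of 6.66 (SE 0.61) fell to 3.83 with 16 added. PDE7B, also specific for cAMP, read 89.6, 68.3 and 121 in LHR- and 2195, 2108 and 2125 in LH20 (log2 4.55, SE 0.18, adjusted p = 1.46e-09). PDE4D rose from 471, 512 and 496 to 1517, 1466 and 1473, a log2 fold change of 1.59 (SE 0.13). PDE10A and PDE4A were the other rises, and PDE4A was at 0.95 and not called without LH20 replicate 2 and at -0.16 with all its probe sets averaged. PDE5A, which degrades cGMP, was the fall, from 2089.7, 1883 and 1736 to 441, 376 and 389 (log2 -2.24, SE 0.13). PDE4D was higher at the shorter time of 4 h, with a mean of 4511.

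Of 23 G protein and adenylyl cyclase genes 2 were called, both higher (8.7%, against 5.23% of all genes higher and 9.97% called). GNG2, a G protein gamma subunit, rose by 1.58 and GNAI1, the alpha subunit that inhibits adenylyl cyclase, by 1.09, which was 0.99 and not called without LHR- replicate 3. Of 23 genes of protein kinase A, EPAC and CREB 1 was called (4.35%, against 9.97% of all genes). That gene, PKIA, encodes an inhibitor of protein kinase A and read 379, 432 and 387 in LHR- and 44.0, 60.7 and 34.8 in LH20 (log2 -3.11, SE 0.21), with its fall in the receptor step (-3.61). Of 17 RGS genes, whose proteins limit G protein signaling, 2 were called higher and 1 lower (17.6%, against 9.97% of all genes called). RGS2 rose from 379, 385 and 347 to 1478, 1739 and 1415 (log2 2.05, SE 0.13). RGS9 rose by 1.16, which was 0.96 and not called without LHR- replicate 2. RGS4 was the fall, from a mean of 38.3 to 3.46, at -3.63 and, without LH20 replicate 1, -4.44.

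The cAMP response element, read by CREB, has the letters TGACGTCA, which are the same on both strands. It was present in 1.98% of all RefSeq promoters, in 2.67% of those of tested genes, in 3.09% of 776 promoters of genes called higher and in 2.45% of 734 of genes called lower. Among promoters of mitosis genes called lower it was present in 4 of 40. By count, 24 promoters of genes called higher and 18 of genes called lower held the element. The windows of PDE7B and of DUSP1, a phosphatase, both called higher, hold the element and are shown for that reason. No window of a gene called lower is shown, so these windows do not tie the element to the rises.
PDE7B (chr6:135851506-135851593, plus strand): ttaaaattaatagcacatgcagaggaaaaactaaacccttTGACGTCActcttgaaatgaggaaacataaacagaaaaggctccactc
DUSP1 (chr5:172771273-172771360, minus strand): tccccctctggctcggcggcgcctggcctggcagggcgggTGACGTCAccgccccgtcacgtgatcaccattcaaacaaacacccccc
Here too the match describes the letters only.

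Immediate early genes are induced within the first hour of many stimuli, and at 20 h they lay on both sides of LHR-. Of 23 measured, 3 were called higher and 4 lower. The orphan nuclear receptors NR4A2 and NR4A3 were higher. NR4A2 read 76.4, 78.2 and 63.4 in LHR- and 391, 352 and 369 in LH20 (log2 2.34, SE 0.22), and NR4A3 rose by 2.44. The NR4A3 mean was 3721 at 4 h of LH and 504 at 20 h. FOSB, an AP-1 subunit, rose from a mean of 2.72 to 51.1.

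The falls were of KLF4, FOSL1, EGR1 and JUN. KLF4, a zinc finger factor of differentiation and growth arrest, read 3525, 3601 and 3098 in LHR- and 502, 375 and 388 in LH20 (log2 -3.02, SE 0.12). FOSL1, an AP-1 subunit, fell from 1342, 1419 and 1429 to 298, 299.9 and 241 (log2 -2.32, SE 0.10). EGR1, a zinc finger factor, fell by 2.31 to a mean of 515, though its mean at 1 h of LH had been 9631. The MAP kinase phosphatases and Sprouty genes, which limit ERK signaling, had 1 rise and 4 falls among 17. DUSP1 rose by 1.06, which was 0.95 and not called without LHR- replicate 1, while DUSP4, DUSP6, SPRY4 and SPRED3 fell, DUSP4 by 1.22 and DUSP6 by 1.17. SPRED3 was at -0.92 and not called without LH20 replicate 3.

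The ID genes encode inhibitors of basic helix-loop-helix factors and are classic targets of BMP signaling. All 4 rose. ID3 read 333, 228 and 260.4 in LHR- and 3624, 2716 and 3306 in LH20, 11.8-fold (log2 3.56, SE 0.20). ID1 rose from 528, 478 and 602 to 2403, 2133 and 2388, ID2 from 92.7, 97.6 and 82.4 to 610.1, 504 and 665, and ID4 from 204, 154 and 272 to 1313, 1258 and 1381. The groups did not overlap for any of the 4, and no receptor step of theirs was called. Over the 51 genes of the TGF-beta, activin and BMP pathway, 6 were called higher and 3 lower (17.6%, against 9.97% of all genes). Besides INHBE and GDF15, the fall was of BAMBI, a pseudoreceptor that blocks TGF-beta signaling, from 3433, 3492 and 3641 to 456, 447 and 443 (log2 -2.97, SE 0.09).

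Stromal matrix genes moved in both directions. Of 40 measured, 7 were called higher and 6 lower (32.5% called), with a median of 0.04. POSTN, the matricellular protein periostin, read 834, 824 and 758 in LHR- and 1.14, 6.13 and 2.52 in LH20. Its log2 fold change was -7.74 (SE 0.77), or -5.42 with 16 added, and nearly all of it was the receptor step. Another probe set of POSTN was called lower, at -5.59, and its dim others were not called. With all of them averaged POSTN was at -3.30. TNC, the matrix glycoprotein tenascin C, fell from 1517, 1988 and 2181 to 140.0, 181 and 177 (log2 -3.50, SE 0.28). COL11A1, a fibrillar collagen chain, was among the rises, from 9.37, 9.57 and 1.56 to 322, 399 and 415. Its log2 fold change of 5.85 (SE 0.39) was 4.12 with 16 added and 5.17 without LHR- replicate 3. COL3A1, another fibrillar chain, fell from a mean of 215 to 24.5. COL6A3, a chain of type VI collagen, fell from 272, 403 and 281 to 26.4, 32.1 and 44.0 (log2 -3.19, SE 0.35) with both steps called. The rises of SMOC2, of the family of SMOC1, and of COL13A1 were of dim genes, with LH20 means of 43.0 and 27.6. SMOC2 was at 3.68, and at 4.33 without LHR- replicate 1 and 3.09 without LHR- replicate 3, and COL13A1 at 3.05, and at 3.66 without LHR- replicate 3.

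In the basement membrane list, 2 of 22 genes were called higher and 3 lower. The rises were of the type IV collagen chains COL4A3 and COL4A4, which share a promoter region and are transcribed apart from it. COL4A4 read 884, 769 and 758 in LHR- and 4388, 5138 and 5028 in LH20 (log2 2.59, SE 0.11), and COL4A3 rose by 1.95. Among the 3 falls LAMA2, a laminin chain, decreased by 2.00, and the other two were LAMA4 and the dim COL15A1. The call of COL15A1 was lost without LHR- replicate 2 (-1.53), LHR- replicate 3 (-1.55) or LH20 replicate 2 (-1.31). Of 19 integrins 3 were called higher and 2 lower. ITGB8, which binds latent TGF-beta, rose from 594, 595 and 566 to 3375, 2977 and 2877 (log2 2.39, SE 0.14), and ITGB4 rose by 2.08, with ITGA2 as the further rise. ITGB3 fell by 2.34 and ITGA11 by 2.42.

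Metalloproteinases and their inhibitors had 3 called rises and 7 falls among 39 (25.6%, against 9.97% of all genes called). ADAMTS6 read 1709, 2142 and 1883 in LHR- and 195, 125 and 169 in LH20 (log2 -3.56, SE 0.14), and ADAMTS15 fell from a mean of 540.4 to 22.3. The other probe set of ADAMTS15 had means of 34.61 in LHR- and 34.59 in LH20 and was not called. With both averaged ADAMTS15 was at -2.30. ADAMTS16 fell from a mean of 169.8 to 14.6, with both steps called. ADAMTS2, which trims procollagens, rose from a mean of 19.3 to 288. Its other probe sets were not called, and with all averaged it went from a log2 fold change of 3.87 to 1.82. ADAMTS9 rose by 2.58 and MMP16, a membrane-bound metalloproteinase, by 1.27. None of the 4 other probe sets of MMP16 was called, and with all of its probe sets averaged it was at 0.18 and not called. Of 32 genes of plasminogen, serpins, complement and coagulation, 2 were called higher and 8 lower. The rises were of TFPI2, an inhibitor of serine proteases, from 1044, 889 and 1170.3 to 3734, 3616 and 3927, and of the complement protease CFB, by 1.78. SERPINA1, alpha-1 antitrypsin, fell from 481, 481 and 561 to 87.8, 87.1 and 72.5, and CFI, which inactivates complement, from a mean of 165 to 13.1. The log2 fold change of CFI was -3.80, and -3.21 without LH20 replicate 2. THBD, the anticoagulant thrombomodulin, fell from 966, 809 and 1179.6 to 262, 193 and 163 (log2 -2.26, SE 0.16).

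Keratins, desmosome and tight junction genes, which hold epithelial sheets together, had 8 falls and 4 rises among 41. CLDN1, a claudin of tight junctions, read 1907, 2093 and 1544 in LHR- and 452, 354 and 357 in LH20 (log2 -2.25, SE 0.14). CLDN4 fell from 950.0, 1193 and 1137 to 275, 337 and 313 (log2 -1.82, SE 0.15), and was at -0.92 and not called with all its probe sets averaged. CDH1, the epithelial cadherin, stayed dim, with means of 19.0 and 51.6. Its rise of 1.51 was 0.99 and not called with 16 added. The keratins KRT14 and KRT16, of squamous epithelia, fell from means of 60.2 and 60.3 to 3.93 and 9.76, with receptor steps of -2.88 and -4.65. KRT16 was at -2.82, and at -2.11 without LH20 replicate 2. PKP1, a desmosome protein, fell by 2.46, a call lost without LHR- replicate 1 or 2 or LH20 replicate 1 or 2 (-2.35 to -1.88), with -3.33 without LHR- replicate 3. Besides CDH1 and ITGB4 the rises were of the dim KRT23, by 1.76, and of CLDN11, by 1.06. The call of KRT23 was lost without any one array but LH20 replicate 2 (1.44 to 1.95), and that of CLDN11 without LHR- replicate 1 (0.83) or LH20 replicate 1 (0.91). Of 18 cadherins and transition factors CDH6 was called higher at 1.97 and TCF4 lower at -1.37 (11.1%, against 9.97% of all genes called).

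Among 47 cytokines and chemokines 3 were called higher and 8 lower. TNFSF10, the death ligand TRAIL, read 78.5, 90.2 and 78.7 in LHR- and 1076, 1200.4 and 1296 in LH20, 14.3-fold (log2 3.83, SE 0.41). It had a receptor step of -2.65 and a hormone step of 6.48, and its mean at 8 h of LH was still 35.1. IL6 rose from 40.8, 40.7 and 23.9 to 146, 112 and 132 (log2 1.89, SE 0.19), having reached a mean of 1668 at 1 h. CCL28 rose by 1.17, which was 0.98 and not called without LHR- replicate 2. The 4 largest falls were of dim genes. TSLP, an epithelial cytokine, fell by 2.96, from a mean of 27.4 to 2.84, in the hormone step. TNFSF15, of the TNF family, fell by 2.20, and its call was lost without LHR- replicate 1 or 2 or LH20 replicate 2 or 3 (-2.16 to -1.81), with -2.89 without LH20 replicate 1. The chemokines CCL20 and CCL7 fell by 1.95 and 1.54 from means under 10. The call of CCL20 was lost without LHR- replicate 3 (-1.10), LH20 replicate 1 (-1.94) or LH20 replicate 2 (-1.86), and that of CCL7 without LHR- replicate 3 (-1.21) or LH20 replicate 3 (-1.37).

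Cytokine receptors and JAK-STAT genes had 8 called rises and 6 falls among 40 (35.0% called). SOCS3, a feedback inhibitor of cytokine signaling, read 578, 732 and 543 in LHR- and 1696, 2171 and 2359 in LH20 (log2 1.75, SE 0.19). CXCR4, a chemokine receptor, rose from a mean of 17.5 to 109, and IL18R1 fell from 66.6 to 7.49. IL11RA, a receptor for interleukin 11, rose from 406, 502 and 352 to 1116, 1159 and 1113 (log2 1.44, SE 0.16). The dim decoy receptor IL1R2 rose by 1.94, a call lost without LHR- replicate 2 or 3 or LH20 replicate 2 or 3 (1.62 to 1.87). IL20RB fell from 557, 675 and 764 to 177, 179 and 153 (log2 -1.95, SE 0.15). SOCS1, a feedback inhibitor like SOCS3, fell by 2.07, and IL15RA by 1.53, both mainly in the hormone step. In the NF-kB list NFKBIZ and NFKBIA, which the pathway induces, were the 2 called genes of 19. Both were higher (10.5%, against 5.23% of all genes higher and 9.97% called). NFKBIZ rose from 1075, 1009.7 and 1101 to 3696, 4046 and 4072 (log2 1.89, SE 0.10), and NFKBIA by 1.19.

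Of 46 interferon-stimulated genes, 3 were called higher and 7 lower, with a median of 0.12. IFITM1, a membrane protein that restricts viruses, read 52.2, 42.7 and 45.2 in LHR- and 286, 343 and 353 in LH20 (log2 2.78, SE 0.22), all in the hormone step. IFIH1, a sensor of viral RNA, fell from 157, 92.5 and 166 to 7.43, 8.44 and 12.1, nearly all in the receptor step (-3.63). IFI27 rose by 1.27 and IFI35 by 1.05, the latter at 0.93 and not called without LHR- replicate 1. GBP1, a guanylate-binding protein, fell from a mean of 29.9 to 1.51, and PSMB9, a subunit of the immunoproteasome, from 115 to 18.0, at -2.91 and, without LH20 replicate 2, -3.53. USP18 fell by 2.80, a call lost without LHR- replicate 1 or 3 or LH20 replicate 1 (-2.84 to -2.14). Of 41 genes of death receptors, caspases and the BCL2 family 3 were called higher and 2 lower (12.2%, against 9.97% of all genes called). The falls were of BCL2, which blocks apoptosis, by 2.04, and of FAS, a death receptor, by 1.77, and the rises were of TNFSF10, BNIP3 and TNFRSF21.

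The ERBB receptors bind EGF-like ligands, and 2 of 16 genes of this family were called higher and 3 lower. ERBB2, a receptor tyrosine kinase that pairs with the other ERBB receptors, read 1974, 2739.7 and 2524 in LHR- and 6796, 6928 and 7105 in LH20 (log2 1.54, SE 0.12). ERBB4, a receptor for neuregulins, went the other way, from 1937, 1690.3 and 2003 to 238, 239 and 323. Its log2 fold change of -2.82 (SE 0.37) was made of a receptor step of -5.48 and a hormone step of 2.66. The other called genes were BTC and NRG4, both lower, and LRIG3, higher. LRIG3 was not called without LHR- replicate 3 (0.92) or LH20 replicate 2 (0.98).

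Of 41 other receptor tyrosine kinases 7 were called higher and 2 lower. EPHA4, a receptor for ephrins, rose from 278, 278 and 331 to 1282, 1512 and 1361 (log2 2.23, SE 0.13). KIT, the receptor for stem cell factor, rose from 301, 193 and 332 to 1135, 1166 and 1208 (log2 2.12, SE 0.17). PDGFRA rose from a mean of 22.5 to 120.2. ROS1 was one of the falls, at -2.09. Growth and angiogenic factors had 3 rises and 5 falls among 40. BDNF, a neurotrophin, rose from 558, 676 and 571 to 2847, 2635 and 2916 (log2 2.22, SE 0.14). PTN, the growth factor pleiotrophin, fell from 953, 729 and 548 to 26.8, 40.8 and 46.9, in the receptor step, and CCN1 fell by 2.17, in the hormone step. PDGFA, a ligand of PDGFRA, fell from 2207, 2479.6 and 3179 to 1112, 1021 and 1150.3 (log2 -1.24, SE 0.15). The semaphorin and VEGF receptor NRP2 and the neurotrophic factor ARTN fell by 1.32 and 1.13. The further rises were of ANGPT1, a ligand of the TIE2 receptor, by 2.02, and of CCN5 by 1.13, which was 0.94 and not called without LH20 replicate 3. EPHB1 was the other fall among the receptor kinases, at -1.23.

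In the IGF system 3 of 21 genes were called higher and 4 lower. IGFBP1, which binds insulin-like growth factors and marks decidual cells, rose from 25.7, 43.6 and 33.4 to 193, 322 and 335 (log2 3.00, SE 0.31). STC1 rose from 872, 644 and 774 to 4443, 4935 and 4326 (log2 2.59, SE 0.19), and STC2, of the same stanniocalcin family, fell as given above. PAPPA2, a protease of IGF binding proteins, fell by 2.23. IGF1R, the receptor for IGF1, rose from 2562, 2515 and 2201 to 4948, 5063 and 5461 (log2 1.09, SE 0.10). IGFBP6 fell from 4269, 4307 and 4712 to 1753, 1826 and 1721 (log2 -1.32, SE 0.08), in the receptor step. IGFBP4 fell by 1.17, a call lost without any one of the 6 arrays (-1.30 to -0.94). Genes of prostaglandins and ovulation had 4 rises and 7 falls among 28 (39.3% called). PTGES, which makes prostaglandin E2, read 52.0, 63.9 and 88.2 in LHR- and 478, 576 and 500.1 in LH20 (log2 2.94, SE 0.20), all in the hormone step. Its other probe set had means of 55.8 in LHR- and 45.8 in LH20 and was not called. With its probe sets averaged PTGES was at 1.32. VCAN, the proteoglycan versican, rose from 3824, 3853 and 4303 to 8588, 8923 and 9230.2 (log2 1.16, SE 0.08). PTGS1, a cyclooxygenase, rose by 1.69, with a receptor step of 2.39, and HPGD, which inactivates prostaglandins, rose by 1.55. The prostaglandin E2 receptor PTGER4 fell from 143, 183 and 139 to 46.2, 45.1 and 39.5, and PTX3, a pentraxin of the same matrix, from a mean of 71.3 to 8.41. TNFAIP6, of the matrix that expands round the egg cell at ovulation, went from 276, 242 and 267 to 12.2, 19.2 and 16.7, all in the receptor step. Of 26 steroidogenic genes SCARB1, a lipoprotein receptor, was called higher and SULT1E1 lower, 7.69% of the list against 9.97% of all genes.

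Hypoxia and glycolysis genes were higher where called, with 7 rises and no fall among 34. With an adjusted p under 0.1, 22 were higher, against 3236 of all 19775 genes. Above the median brightness were 30 of the 34, against 9887 of all 19775 genes. CA12, a membrane carbonic anhydrase, read 726, 629.6 and 694 in LHR- and 7363, 8618 and 7830.4 in LH20, 11.6-fold (log2 3.54, SE 0.18), with a receptor step of 0.02. ANKRD37 rose from 1158, 823 and 569.7 to 4315, 4349.9 and 4521 (log2 2.43, SE 0.24), and was at 0.78 and not called with all its probe sets averaged. PFKFB4, which steers glycolysis, rose by 1.98 and EGLN3, an oxygen-sensing hydroxylase, by 2.29. The NRF2 and glutathione list had 6 rises and no fall among 41 (14.6%, against 5.23% of all genes higher and 9.97% called). GSTM1 rose by 1.70, GSTM4 by 1.66 and GSTA4 by 1.52. ABCC2, a pump for conjugates, rose from a mean of 30.7 to 106. The GSTM genes are near copies of one another, so their probe sets may share signal.

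Of 26 cholesterol and fatty acid genes 3 were called higher and 1 lower (15.4%, against 9.97% of all genes called). A higher mean in LH20 was seen for 24 of the 26. Of these, 15 had an adjusted p under 0.1, against 3236 of all 19775 genes that were higher at that adjusted p. Above the median brightness were 20 of the 26, against 9887 of all 19775 genes. INSIG1, a brake on sterol synthesis, rose by 1.21 and ACAT2 by 1.14, and TM7SF2, a sterol reductase, was the further rise, at 0.99 and not called without LH20 replicate 1. ELOVL6, a fatty acid elongase, fell by 1.65. Among 18 connexins and aquaporins AQP3 and GJB2 were called higher (11.1%, against 5.23% of all genes higher and 9.97% called). AQP3, a channel for water and glycerol, read 389, 398 and 313 in LHR- and 2652, 3139 and 2833 in LH20 (log2 2.97, SE 0.15), all in the hormone step. GJB2 read 18.3 or less in each of the 6 arrays, and its call was lost without LHR- replicate 2 (1.66), LHR- replicate 3 (1.501), LH20 replicate 1 (1.85) or LH20 replicate 3 (1.96), while it was at 2.64 without LHR- replicate 1.

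The potassium and calcium channels held 8 rises and 6 falls among 59 (23.7% called). Besides KCNJ16, KCNK1, a background potassium channel, fell from 2408, 2404 and 2383 to 441, 378 and 344 (log2 -2.63, SE 0.13), in the receptor step. KCNT2, a sodium-activated potassium channel, fell from 694, 658 and 566 to 141, 158 and 153, with a receptor step of -3.38 and a hormone step of 1.31. KCNK5 fell by 1.98, in the receptor step. KCNQ3 was at -2.11, and at -1.16 without LH20 replicate 1. The largest rises besides KCNJ16 were of dim channels with LH20 means under 27, namely TRPC6 at 2.31, TRPM4 at 2.23 and CACNA1H at 1.92. The call of TRPC6 was lost without any one array but LHR- replicate 2 (1.61 to 2.47, and 3.02 without LHR- replicate 2). The call of TRPM4 was lost without LHR- replicate 2 or 3 or LH20 replicate 2 or 3 (1.75 to 2.20, and 2.88 without LH20 replicate 1), and that of CACNA1H without LHR- replicate 1 or 2 or LH20 replicate 1 or 2 (1.58 to 1.86). Of 47 semaphorin, ephrin and axon guidance genes 4 were called higher and 7 lower. NTN4, the secreted netrin 4, was one of the falls. It read 9811, 10215 and 9547 in LHR- and 2649.7, 2581 and 2592 in LH20 (log2 -1.92, SE 0.09). EFNA1, an ephrin ligand, rose from 704, 988 and 557 to 2188, 2383 and 2269. SLIT3, a secreted guidance cue, rose from a mean of 16.9 to 149 in the receptor step. Its log2 fold change was 3.26, and 2.68 without LHR- replicate 3. EFNA4 rose by 1.01, which was 0.93 without LHR- replicate 2 and 0.95 without LH20 replicate 3 and then not called. SEMA5B, a dim semaphorin, was at 3.20, and at 2.55 without LHR- replicate 2. The netrin receptors UNC5C and UNC5B fell from means of 83.9 and 147 to 1.83 and 12.4. UNC5C fell mainly in the receptor step (-3.03) and UNC5B in the hormone step (-3.18), and the net difference of UNC5B, -3.83, was -4.51 without LH20 replicate 1 and -3.12 without LH20 replicate 2. SEMA7A fell from 568, 581 and 609 to 113, 152 and 162 (log2 -2.05, SE 0.19).

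**Figure D5:**
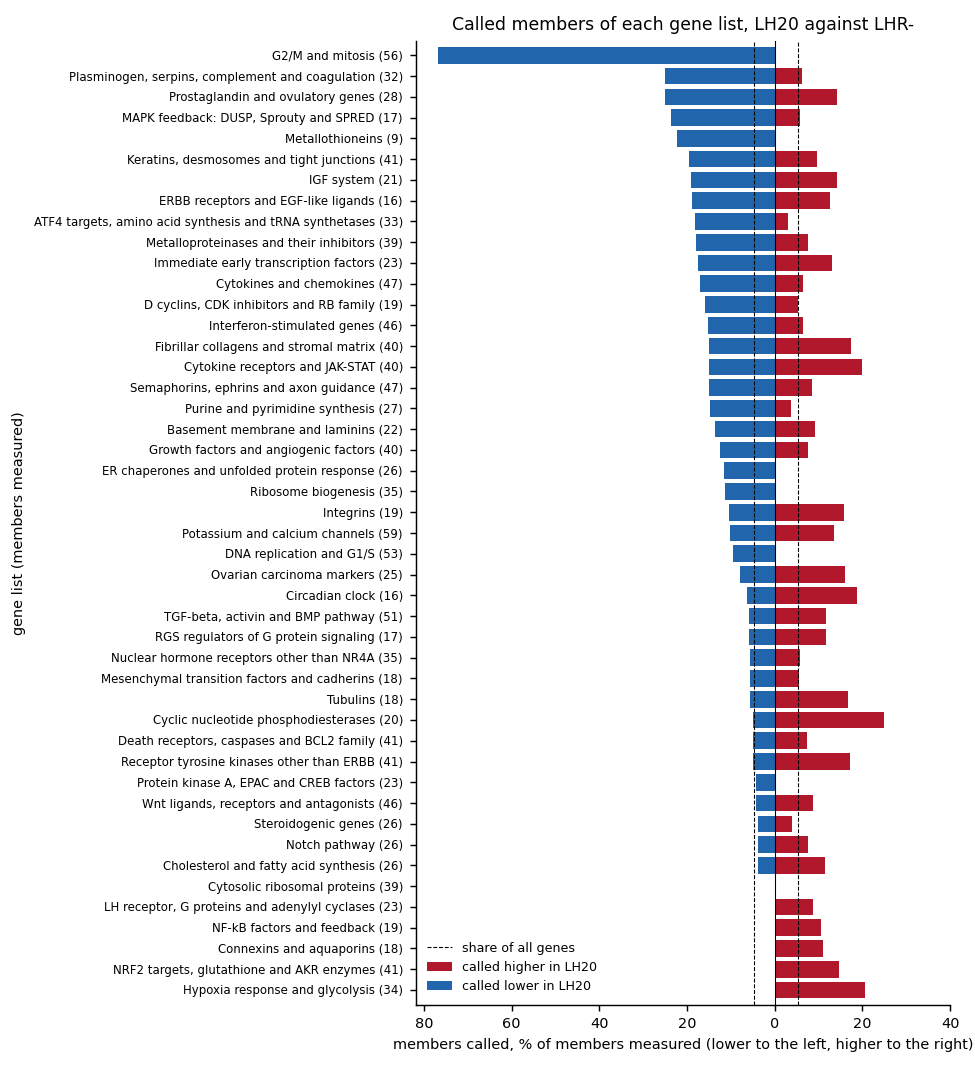
Share of measured members called lower (blue, to the left) and higher (red, to the right) in LH20 for each gene list other than those of cell type markers, with the number of measured members in brackets and dashed lines at the shares over all genes (4.74% lower, 5.23% higher). The G2/M and mitosis list stands at 76.8% lower, the phosphodiesterases have the longest bar to the right of the lists drawn, and the ribosomal proteins have none.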

How the data were processed

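Total RNA of SKOV-3 cells was amplified and hybridised to 18 arrays, 3 per group. The deposited values are intensities, 1 per probe set and array. The labels name PLIER as the authors' summary method and the paper's methods name RMA, so the method stays unsettled. From the values, they are linear, with array medians from 46.9 to 57.9. The number of arrays limits the precision.

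The values were analysed as log2(value + 1) with limma 3.58.1 in R 4.3.3, in a fit of 6 group means over all 54675 probe sets and 18 arrays, with Benjamini-Hochberg adjustment over all probe sets. The statistics were first tested on simulated data. The study's methods describe independent replicates, and an exact permutation test of 3 against 3 arrays cannot give a two-sided p below 0.1. Each of 19775 genes took its brightest probe set with 1 gene symbol (41097 probe sets). Probe sets with several symbols (1801) or none (11777) are in the counts of probe sets only. Promoters are those of RefSeq on GRCh38.p14.

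The comparison, the gene lists and their members were chosen with earlier results of these data known. Named were the 15 largest called rises and 15 largest falls above the median brightness, up to 4 per list and direction, up to 8 each with steps in the opposite or the same direction, and the cell type markers. Where a count of called genes was 5 or fewer and members beyond this rule are named, they were chosen after their values were seen.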

Additional observations from a re-analysis of the deposited data

How the results depend on the processing

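The main settings called 2644 probe sets higher and 2218 lower. Adding 16 in place of 1 gave 1739 and 1398, keeping only probe sets above the median brightness gave 1656 and 1304, and dropping the fold threshold gave 6979 and 6673 (3117 and 3190 genes). With no fold threshold all 56 mitosis genes were called lower. Bringing all array medians to one value gave 924 genes higher and 1054 lower and moved the median gene by -0.06. Leaving out each array in turn gave 2536 to 2993 probe sets higher and 2163 to 2516 lower, 1012 to 1109 genes higher and 927 to 990 lower, and 42 to 44 mitosis genes lower. A one-way analysis of variance of the 6 arrays called 866 genes higher and 812 lower.

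Same-numbered LHR- and LH20 arrays had deviations from their group means that correlated at 0.0059, 0.0216 and 0.0209. For differently numbered arrays the correlations ran from -0.0189 to -0.0021. All of these are small, and they do not settle whether the replicate numbers mark a pairing. With the replicate block 1031 genes were called higher, 933 lower and 43 mitosis genes lower, with 2621 and 2217 probe sets, and MSLN and WNT6 were the named genes not called.

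Of 240 named called genes, 171 kept their call and direction under all 16 alternatives. Adding 16 moved the fold of 55 of them by more than 1.5 times and averaging all probe sets of a gene that of 76. With 16 added, calls lost included those of ITGA2 (0.98), NRG4 (-0.92), SPRY4 (-0.86), HEY2 (-0.96), NR3C2 (-0.99) and MSLN (-0.74). With the average, those lost included ANGPT1 (0.82), BCL2 (-0.83), CLSPN (-0.60), DTYMK (-0.74), DUSP1 (0.68), EPHB1 (-0.53), GART (-0.90), ITGB4 (0.85), LAMA4 (-0.52), NRP2 (-0.93), PTGER4 (-0.62), RORA (0.90), RRP12 (-0.46), SCARB1 (0.78), SEMA7A (-1.03), SFRP1 (0.79), SOCS1 (-1.28) and VDR (-0.47). Under that average BHLHE41 came to 0.17, PDE4A to -0.16 and PTPRC to -0.42 on the log2 scale. Without 1 array, PTPRC lay between -0.51 and 1.07 (-0.20 without LH20 replicate 2) and SLCO2A1 between -0.64 and 0.86 (-0.10 without LHR- replicate 3), and neither gene had been called. For 99 named called genes another probe set was not called or went the other way, and for CCL28, DTYMK, GADD45B, GART, ITGA2, RORA and SANBR that probe set had a group mean above 100.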

Other observations

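Lists that the comparisons above left aside held a few strong members each. Of 18 tubulins 3 were called higher and 1 lower. TUBB2B, a beta tubulin, rose from 63.3, 77.3 and 59.6 in LHR- to 298, 319.9 and 274 in LH20 (log2 2.14, SE 0.18), with 1.82 in the receptor step, and TUBAL3 rose by 1.29 with steps of 2.48 and -1.19. TUBB4A was the further rise and TUBE1 the fall. Of 26 Notch pathway genes HES2 and JAG2 were called higher and HEY2 lower (11.5%, against 9.97% of all genes called). HEY2 was at -1.06 and not called without LH20 replicate 1 (-0.83) or LH20 replicate 3 (-0.92). HES2, a transcriptional repressor, read 56.6, 57.0 and 46.6 in LHR- and 458, 619 and 658 in LH20 (log2 3.40, SE 0.18). Its other probe sets were not called, and with all probe sets averaged HES2 was at 1.10. Of 46 Wnt genes 4 were called higher and 2 lower (13%, against 9.97% of all genes called). SFRP1, which binds Wnt ligands, rose by 1.41, nearly all in the receptor step. FZD2, a Wnt receptor, rose from 457, 309 and 492 to 1088, 848 and 969.8 (log2 1.23, SE 0.15), also in the receptor step. NKD2 was at 2.80, and at 3.64 without LHR- replicate 3. The dim WNT10A rose by 1.34, a call lost without LHR- replicate 2 (1.32) or LH20 replicate 2 (0.63). LGR5, a receptor for R-spondins, fell from 149.7, 144 and 123 to 19.8, 20.7 and 0.791, at -3.90, and at -2.72 without LH20 replicate 3 and -4.51 without LH20 replicate 2. WNT6 fell by 2.46, a call lost without any one array but LH20 replicate 2 (-2.57 to -2.04, and -3.22 without LH20 replicate 2), and a second probe set of it was called higher, with means of 2.55 and 18.5.

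Among 25 markers of ovarian carcinoma 4 were called higher and 2 lower. FOLR1, the folate receptor alpha, read 981, 976 and 1276 in LHR- and 2932, 3093 and 3247 in LH20 (log2 1.53, SE 0.11). MUC1, a membrane mucin, rose by 1.53 and SOX17 was a further rise beside ERBB2, while CLDN4 and the dim MSLN fell. The call of MSLN was lost without any one of the 6 arrays (log2 -2.24 to -1.45). Of 35 nuclear hormone receptors RORA and ESRRG were called higher and VDR and NR3C2 lower (11.4%, against 9.97% of all genes called). NR3C2, the mineralocorticoid receptor, had a receptor step of -2.30 and a hormone step of 1.22. Its net fall of 1.08 was not called without LHR- replicate 2 (-0.90) or LH20 replicate 3 (-0.89), and the rise of ESRRG, from a mean of 6.69 to 66.0, ran from 2.59 to 4.20 on the log2 scale without LHR- replicate 2 or 3. Of 16 circadian clock genes 3 were called higher, namely PER2, RORA and HLF, and BHLHE41 lower. HLF was dim, and its rise was 2.25 on the log2 scale and between 1.70 and 3.13 without 1 array. It was 0.68 and not called with 16 added, the call was lost with equal array medians (2.19) or quantile normalization (2.23), it was 1.51 with all probe sets averaged, and neither of its 2 other probe sets was called. A dimmer probe set of BHLHE41 was called the other way, with means of 2.56 in LHR- and 13.9 in LH20.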
